A study of Mus musculus with 24 samples.

Results

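Immunoglobulin light chain variable segments were taken as the rows of the raw count table whose symbol starts with Igkv (kappa) or Iglv (lambda) and whose counts, summed over all 24 libraries, reached 100. The rule kept 82 of 163 such rows, among 55487 genes in the table: 79 of 160 Igkv rows and all 3 Iglv rows. Of the other rows, 30 had 1 to 99 counts and 51 had none, and together they held 0.19% of the light chain variable counts. Just inside the threshold were Igkv4-60 with 124 counts, Igkv4-77 with 140 and Igkv5-37 with 144, and just outside it Igkv4-62 with 92, Igkv4-51 with 70 and Igkv4-69 with 55. By GENCODE biotype, 80 of the 82 segments were genes and 2, Igkv4-60 and Igkv4-77, were pseudogenes, whereas 58 of the 81 rows below the threshold were pseudogenes.

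The study co-cultured mouse bone-marrow-derived macrophages (BMDMs) with lymphocytes from the spleens of mice carrying B16-F10-OVA tumours, a melanoma line that makes the model antigen ovalbumin, and sequenced poly(A) RNA of the whole culture. The BMDMs were either WT or Tmem175-/- (called knockout here). Tmem175 encodes a lysosomal ion channel. Each genotype had 4 conditions with 3 libraries each: no antigen (none), antigen from B16-F10-OVA tumour cells (antigen), and antigen with IL-1beta or with IL-18, each at 500 pg/ml. The labels give the genotype of the macrophages and not that of the lymphocytes, and they do not say whether the lymphocytes of the 2 arms came from the same mice or were prepared together, so the macrophage genotype and the source of the lymphocytes cannot be told apart. They do not say either whether the 3 libraries of a group are separate cultures, so p-values measure the spread between libraries, which may be technical.

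Each B cell makes 1 kind of light chain by joining a variable segment to a joining segment, which is then spliced to a constant region. In the mouse most light chains are kappa, built from a large set of variable segments in families of related sequence, and a minority are lambda, built from very few. The genome places the kappa segments on chromosome 6 and the lambda segments on chromosome 16. Light chain RNA is very abundant in plasma cells, the antibody-secreting descendants of B cells, and a few such cells can carry many of the light chain reads of a mixed sample. Counts of a segment in bulk RNA therefore measure RNA, not cells, and fewer cells of a type and less RNA per cell cannot be told apart.

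The 24 libraries held 17744540 to 24898552 counts each, and none was left out. Tmem175 was lower in the knockout libraries of every condition without overlap, for example 14.1 to 15.03 CPM (counts per 1000000 counts of a library, scaled with TMM factors) in knockout against 24.4 to 26.1 in WT without antigen, and it had counts in all 12 knockout libraries. The labels do not say which part of the gene was deleted. Macrophage markers summed to 11246 to 23432 CPM, T cell markers to 12.1 to 20.9 and B cell markers to 50.9 to 78.8, of which Cd22 was the main part. These are sums of a few listed genes and do not measure the share of each cell type in the RNA. The B cell markers Fcer2a and Cr2 averaged under 3 counts per library in every group.

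Germline sequences are printed for 3 sets of segments on which the results turn. They come from the GENCODE vM21 transcripts of GRCm38, in the direction of transcription, and give the last 300 coding bases, that is bases 54 to 353 of the kappa and 52 to 351 of the lambda segments, which leave out most of the leader. Capitals mark bases that differ from, or have no counterpart in, the first segment of the set, which is all in lower case. The first set holds Igkv14-126, which had the largest ratio of WT to knockout share of the 82 segments, and 2 relatives, chosen after their values were seen, with other ratios.
Igkv14-126: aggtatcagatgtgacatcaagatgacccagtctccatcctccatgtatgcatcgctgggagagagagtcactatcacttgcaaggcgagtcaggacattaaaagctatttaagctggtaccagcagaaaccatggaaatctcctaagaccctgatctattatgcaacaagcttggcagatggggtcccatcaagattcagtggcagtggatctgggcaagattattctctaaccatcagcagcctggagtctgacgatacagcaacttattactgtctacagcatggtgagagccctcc
Igkv14-111: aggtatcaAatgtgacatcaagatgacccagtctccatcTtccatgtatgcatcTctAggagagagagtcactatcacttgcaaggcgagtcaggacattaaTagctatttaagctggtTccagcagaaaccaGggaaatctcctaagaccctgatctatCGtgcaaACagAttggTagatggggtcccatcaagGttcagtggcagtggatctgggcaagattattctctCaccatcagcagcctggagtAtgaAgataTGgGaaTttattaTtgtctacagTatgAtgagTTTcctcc
Igkv14-130: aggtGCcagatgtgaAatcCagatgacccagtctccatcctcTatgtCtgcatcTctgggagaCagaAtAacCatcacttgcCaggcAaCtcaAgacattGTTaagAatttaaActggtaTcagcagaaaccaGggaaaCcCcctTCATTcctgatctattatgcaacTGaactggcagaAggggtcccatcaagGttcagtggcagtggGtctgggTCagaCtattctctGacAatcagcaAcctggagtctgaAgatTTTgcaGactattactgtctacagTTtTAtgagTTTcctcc
Over the whole coding sequence, Igkv14-111 differed from Igkv14-126 at 30 of 353 aligned bases (91.5% identity), and Igkv14-130 at 51 of 349 (85.39%). The stretch shown has 27 and 52 capitals, which for Igkv14-130 include unaligned bases. They were spread along the segment and reached its 3′ end, which is next to the joining segment.

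The second set is the pair that makes up family Igkv17, both of which took a larger share of the WT than of the knockout counts.
Igkv17-127: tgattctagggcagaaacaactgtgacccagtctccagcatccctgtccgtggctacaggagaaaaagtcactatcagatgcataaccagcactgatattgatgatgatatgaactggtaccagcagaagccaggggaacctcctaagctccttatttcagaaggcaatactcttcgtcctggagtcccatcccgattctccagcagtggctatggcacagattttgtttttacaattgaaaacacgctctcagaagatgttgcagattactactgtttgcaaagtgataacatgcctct
Igkv17-121: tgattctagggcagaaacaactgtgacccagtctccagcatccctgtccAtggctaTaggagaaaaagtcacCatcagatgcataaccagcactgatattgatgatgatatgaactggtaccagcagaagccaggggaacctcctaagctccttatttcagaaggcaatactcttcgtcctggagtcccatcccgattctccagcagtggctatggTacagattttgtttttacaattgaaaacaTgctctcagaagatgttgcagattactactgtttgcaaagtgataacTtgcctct
The pair differs at 9 of 353 bases (97.45% identity), 6 of them in the stretch shown, so a short read can match both and the split of counts between them is uncertain. The last set is the lambda pair, which shows how alike the main and a minor lambda segment are.
Iglv1: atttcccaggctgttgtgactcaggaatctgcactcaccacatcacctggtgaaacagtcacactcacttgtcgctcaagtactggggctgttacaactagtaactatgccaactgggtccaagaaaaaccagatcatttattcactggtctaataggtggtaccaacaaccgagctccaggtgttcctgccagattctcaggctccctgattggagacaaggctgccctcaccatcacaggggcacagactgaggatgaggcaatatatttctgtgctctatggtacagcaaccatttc
Iglv2: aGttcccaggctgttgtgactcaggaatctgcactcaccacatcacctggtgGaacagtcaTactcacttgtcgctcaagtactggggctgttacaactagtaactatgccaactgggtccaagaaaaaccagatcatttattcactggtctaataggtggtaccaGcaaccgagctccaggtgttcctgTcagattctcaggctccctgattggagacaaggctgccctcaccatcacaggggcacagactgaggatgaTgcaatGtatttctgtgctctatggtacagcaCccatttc
Iglv1 and Iglv2 differ at 11 of 351 bases (96.87% identity), 8 of them in the stretch shown, and the split of reads between them is uncertain too. Over all 82 segments, 14 had a relative among them at 97% identity or more, such as Igkv5-43 and Igkv5-45 at 98.56% and Igkv1-110 and Igkv1-117 at 97.21%. The median identity was 90.4% between members of the same family and 73.6% between members of different families.

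Light chain variable RNA was far more abundant in the knockout arm, and the 2 arms did not overlap. Because 97.7% of the counts behind the rule came from the 12 knockout libraries (281667 against 6624 counts), this difference helped to choose the segments and is given as a description only. Summed over the 82 segments, the knockout libraries held 1151, 818 and 881 CPM without antigen, 1214, 1040 and 1158 with antigen, 1400, 808 and 1162 with added IL-1beta and 1376, 992 and 1271 with added IL-18. The WT libraries held 20.7, 18.7 and 29.2 CPM without antigen, 29.1, 21.2 and 34.0 with antigen, 26.6, 24.7 and 26.7 with IL-1beta and 26.8, 29.6 and 27.9 with IL-18. Within the knockout arm the library numbered 2 was the lowest of its group in all 4 conditions.

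**Figure D1:**
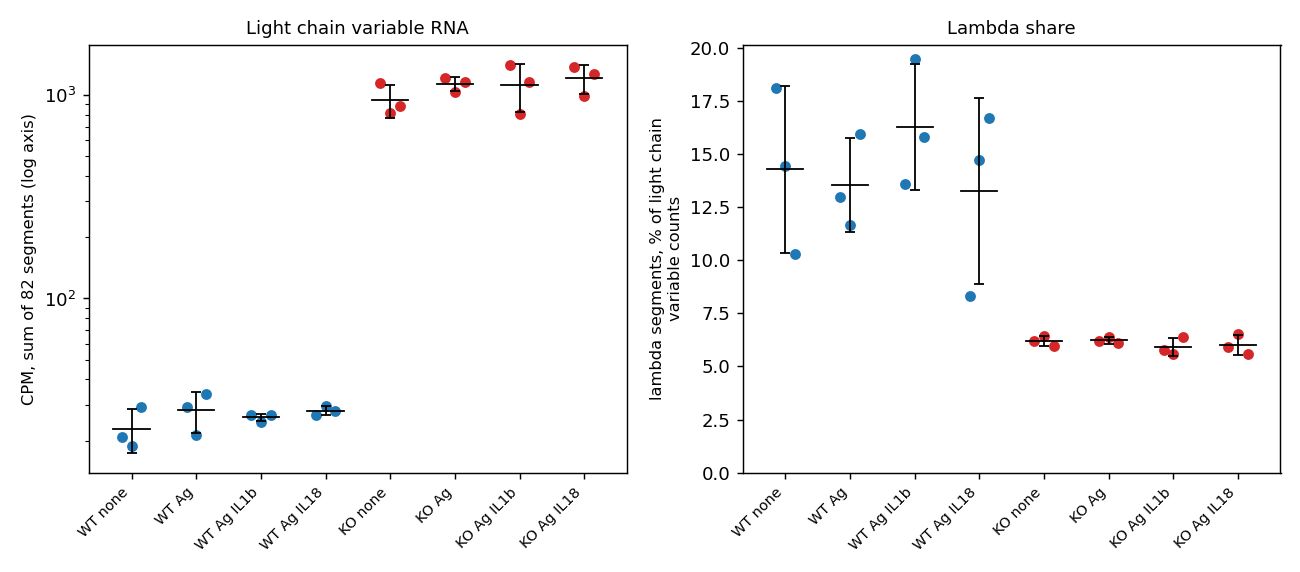
Left, summed CPM of the 82 light chain variable segments in each library (log axis); right, lambda segments as percent of the light chain variable counts. Points are libraries (blue WT, red knockout), long bars the mean and error bars the SD of 3 libraries; the knockout libraries lie at 808 to 1400 CPM and 5.60 to 6.54% lambda, the WT libraries at 18.7 to 34.0 CPM and 8.32 to 19.4% lambda.

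In edgeR's quasi-likelihood fit of knockout against WT, 81, 79, 80 and 80 of the 82 segments passed an adjusted p of 0.05 as higher in the conditions none, antigen, IL-1beta and IL-18, where 9.62%, 7.7%, 7.22% and 9.89% of the 14099 tested genes passed in that direction. All 82 passed edgeR's filter on low counts, many of them only through the knockout groups. The rule for the list also rests mostly on knockout counts, so nothing is read from these numbers of calls. In WT, 48 segments without antigen and 39 in each other condition averaged under 3 counts per library. With WT values below 3 counts set to that floor, the median knockout to WT ratio of CPM over the 82 segments was at least 25.3, 29.9, 34.2 and 30.6 in the 4 conditions. Among segments above the floor without antigen, the ratio ran from 2.85 for Igkv14-126 to 171 for Igkv10-94.

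The difference was not of 1 size over the list. On the log2 scale, the knockout to WT difference without antigen was smallest for Igkv14-126 (1.500, SE 0.50), Igkv4-90 (1.68, SE 0.90), Igkv4-86 (1.78, SE 0.48) and Igkv3-5 (2.64, SE 0.43). The difference was largest for Igkv10-94 (7.36, SE 0.46), Igkv16-104 (7.12, SE 0.49), Igkv5-43 (6.45, SE 0.42) and Igkv19-93 (6.39, SE 0.41). Both lists are of segments that averaged at least 3 WT counts per library without antigen. WT counts were few: they averaged 9.33 for Igkv14-126, 4.67 for Igkv4-90, 8.0 for Igkv3-5 and 3.0 each for Igkv10-94 and Igkv16-104. These values are a description, with no test.

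Usage, the share of each segment in the light chain variable counts of its own library, removes the difference in amount. Kappa and lambda usage differed between the arms. Lambda segments made up 6.21, 6.44 and 5.95% of the counts in the knockout libraries without antigen, 6.18, 6.41 and 6.09% with antigen, 5.78, 5.60 and 6.37% with IL-1beta and 5.92, 6.54 and 5.60% with IL-18. In WT they made up 18.1, 14.4 and 10.3%, 13.0, 11.6 and 15.9%, 13.6, 19.4 and 15.8%, and 8.32, 14.7 and 16.7%, in the same order of conditions. Every WT library lay above every knockout library. The means were 14.3% ± 3.2 (SD, n = 12 libraries) in WT and 6.09% ± 0.32 (SD, n = 12) in knockout, and the difference of -8.23 percentage points passed an exact two-sided permutation test within conditions (p = 1.25e-05, the smallest that 160000 rearrangements allow; adjusted p = 2.5e-05 over 6 tests of library values).

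WT values rest on 388 to 690 counts per library and knockout values on 15362 to 31250. The 95% exact binomial interval, which covers counting error only, was 14.5 to 22.1% for the first WT library without antigen and 5.90 to 6.53% for the first knockout library without antigen. The highest knockout bound, 6.90%, overlapped the interval of 1 WT library, the first with IL-18 (6.11 to 11.0%). Constant region counts gave the same order: Iglc1 to Iglc3 made up 7.49 to 16.4% of the kappa and lambda constant counts in WT and 2.64 to 3.41% in knockout (difference -9.12 points, p = 1.25e-05 in the same exact permutation test, added after the data were seen). Lambda variable counts exceeded lambda constant counts 2.80 ± 0.21 times (SD, n = 12) in knockout and 1.79 ± 0.37 times (SD, n = 12) in WT, so the 2 measures of lambda share differ in scale.

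Iglv1 carried most of the lambda signal, 94.2% of the family's counts over all libraries. It took 13.0% ± 3.2 of the WT counts and 5.76% ± 0.30 of the knockout counts (SD, n = 12 each), and was the top segment in 11 of the 12 WT libraries. Iglv2 had 20 to 81 counts in the knockout libraries and 0 to 14 in the WT libraries, and Iglv3 had 7 to 43 and 0 to 4. Their mean WT share exceeded their knockout share 4.56 and 2.74 times, on few WT counts. The level of lambda RNA was still higher in knockout: Iglv1 stood at 43.9 to 76.6 CPM there and at 1.97 to 4.88 CPM in WT.

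Kappa usage was broad. In knockout the leading segments were Igkv10-96 (7.23% ± 0.34), Igkv1-110 (5.40% ± 0.59), Igkv5-43 (4.67% ± 0.42), Igkv19-93 (4.61% ± 0.32) and Igkv9-120 (3.86% ± 0.32; SD, n = 12 for each). Igkv10-96 was the top segment of all 12 knockout libraries, at 57.3 to 109 CPM. In WT, Igkv10-96 ranked second after Iglv1 at 6.12% ± 1.12, followed by Igkv1-117 (4.96% ± 1.17) and Igkv1-110 (4.82% ± 2.54; SD, n = 12 for each). Igkv1-110 led 1 WT library, the library numbered 3 without antigen, at 11.4%. The 12 segments with the highest shares held 48.32% of the knockout counts and 59.21% of the WT counts, and the 2 lists shared 8 segments.

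**Figure D2:**
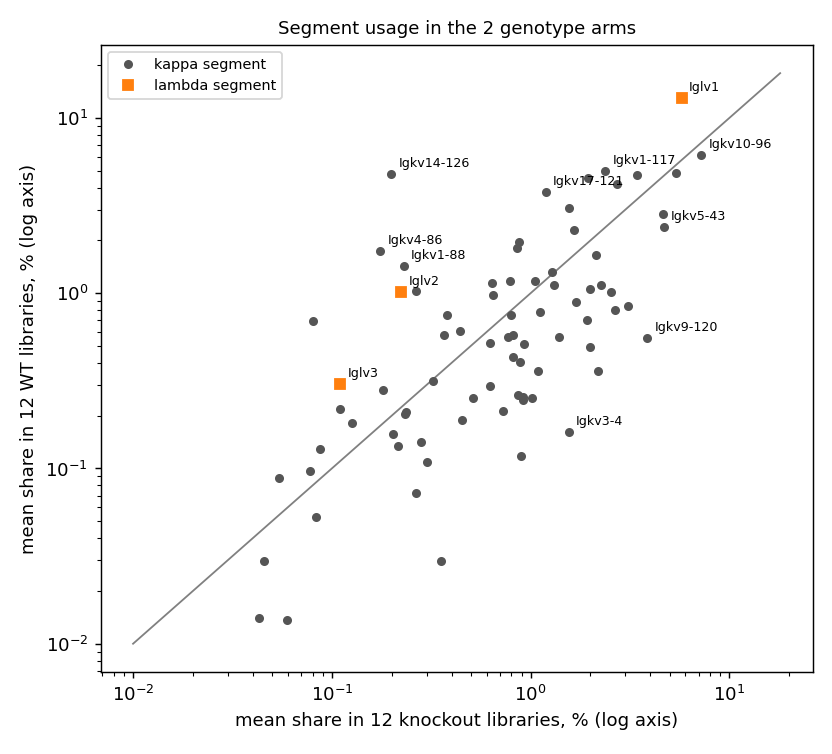
Mean share of each segment in the 12 knockout libraries (x axis, percent, log scale) and in the 12 WT libraries (y axis, percent, log scale); the grey line marks equal shares. Grey circles are kappa and orange squares lambda segments; Igkv14-126 lies at 0.20% in knockout and 4.79% in WT, and the 2 segments with no WT counts, Igkv14-130 and Igkv5-37, are not drawn.

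Of the 18 segments with at least 100 WT counts, 13 had a larger mean share in WT and 5 a smaller one. The ratio of WT to knockout share was largest for Igkv14-126 (24.1), Igkv4-86 (9.96), Igkv1-88 (6.18) and Igkv17-121 (3.17), and smallest for Igkv5-43 (0.51), Igkv19-93 (0.62), Igkv5-48 (0.77) and Igkv10-96 (0.85). These segments were picked by that ratio, so it is not tested. Reaching 100 WT counts favours segments high in WT, and the split of 13 to 5 is not that of the whole list. Igkv1-88 and Igkv4-86 were uneven in WT: Igkv1-88 had 0 to 26 counts per library and Igkv4-86 had 1 to 20, against 19 to 95 and 16 to 62 in knockout.

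Igkv14-126 had the largest ratio of shares, while Iglv1 differed by more percentage points. The share of Igkv14-126 ran from 1.55 to 8.47% (median 4.87%) in the 12 WT libraries and from 0.117 to 0.333% (median 0.200%) in the 12 knockout libraries. In WT it was 2.86, 1.55 and 1.68% without antigen and 2.64 to 8.47% in the 9 libraries with antigen, so its WT mean rests mostly on the latter. Its relative Igkv14-111 had mean shares of 1.31% and 1.27%, nearly equal in the 2 arms. Igkv14-130 was at 0 in all 12 WT libraries, while the knockout libraries had 31 to 100 counts of it. It entered the list through the knockout counts alone, so its difference is not tested. The WT zero, over 6624 counts, allows a share of up to 0.0453%, a limit that covers counting error only, and its knockout mean was 0.267%. For Igkv5-37, the other segment at 0 in WT, the knockout mean of 0.0490% is about at that limit, and a difference in share was not detectable at this depth.

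Other segments were rare in WT although common in knockout. Igkv9-120 had rank 6 in knockout but took 0.55% ± 0.52 (SD, n = 12) of the WT counts, with 0 to 12 counts per WT library against 592 to 1287 per knockout library. Igkv8-30 took 3.09% ± 0.29 in knockout and 0.85% ± 0.62 in WT, and Igkv10-94 took 2.66% ± 0.27 and 0.80% ± 0.81 (SD, n = 12 for each). Igkv16-104 took 2.53% ± 0.27 in knockout and 1.02% ± 0.71 in WT. Igkv6-15 (3.43% ± 0.18 in knockout, 4.71% ± 1.39 in WT) and Igkv5-39 (2.71% ± 0.31 and 4.18% ± 1.06) leaned the other way.

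Family shares differed between the arms too, and not always as their most abundant member did: Igkv14-111 led Igkv14 and Igkv1-110 led Igkv1 in total counts, but neither had the family's shift. Igkv4, the largest with 20 segments in the list, held 14.1% of the knockout and 10.7% of the WT counts, with no member above 13.9% of the family. Igkv9 held 5.03% in knockout and 1.02% in WT, Igkv12 7.58% and 3.41%, and Igkv3 5.46% and 2.96%. Igkv14 held 1.94% and 6.26%, Igkv17 2.74% and 6.82%, and Igkv1 9.66% and 13.9%. The Igkv14 shift was that of 1 segment, Igkv14-126, at 1.55 to 8.47% in WT and 0.12 to 0.33% in knockout. Igkv14-111 was nearly equal in the 2 arms, and Igkv14-100 and Igkv14-130 had smaller mean shares in WT. For Igkv9, Igkv14 and Igkv17 the ranges of the 2 arms were 4.31 to 5.39% against 0 to 2.03%, 1.68 to 2.32% against 3.09 to 8.66%, and 2.30 to 3.13% against 2.86 to 8.88%, so that Igkv9 and Igkv14 did not overlap and Igkv17 did. The Igkv17 pair of near-identical sequences is less uncertain as a sum than segment by segment.

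The number after the hyphen in a kappa symbol follows the order of the segments along the locus, low numbers lying nearest to the joining segments, and in the RefSeq order of GRCm38.p6 that holds for all but 1 of 78 neighbouring pairs. Segments numbered 1 to 35 held 22.2% of the knockout and 20.3% of the WT counts, those numbered 36 to 70 held 23.7% and 16.7%, those numbered 71 to 105 held 28.1% and 20.9%, and those numbered 106 to 140 held 19.95% and 27.7%. Of these 4 ranges, the most distal had a larger share in WT. Its 16 segments were not alike: 8 had a larger mean share in WT, among them Igkv14-126, Igkv17-121 and Igkv1-117, and 8 in knockout, among them Igkv9-120, Igkv1-110 and Igkv14-130. In that range the WT libraries ran from 21.9 to 34.3% and the knockout libraries from 19.1 to 20.9%, without overlap. The gap hung on Igkv14-126, which took 2.86% of the lowest WT library, the first without antigen, and at most 0.33% of a knockout library. Without that segment the arms would overlap, so the gap is not read as an effect of position. In the range 1 to 35 the arms overlapped, at 17.1 to 24.6% and 21.5 to 23.4%.

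**Figure D3:**
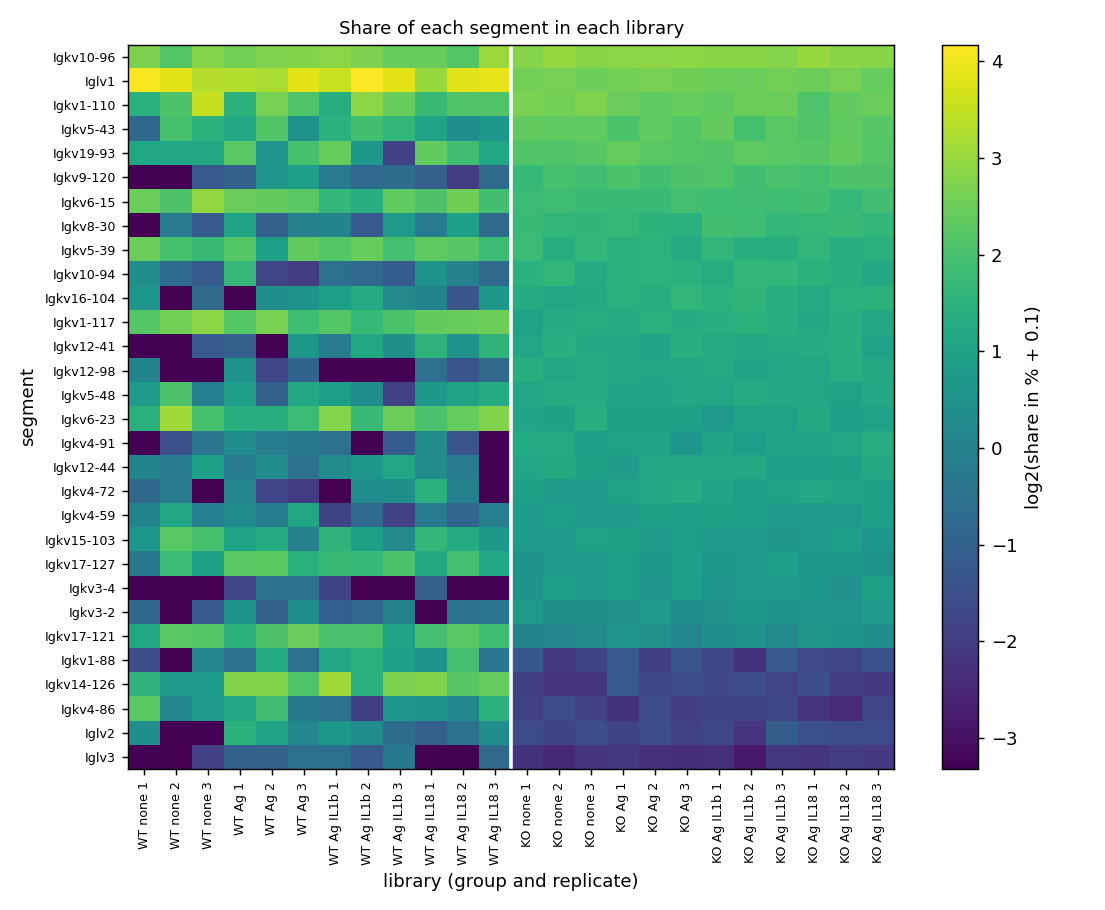
Share of 30 segments (rows: the 24 with the highest counts, then 6 named for their shift or as lambda segments) in each of the 24 libraries (columns, WT left and knockout right of the white line), coloured as log2 of the share in percent plus 0.1. The knockout columns look alike, the WT columns vary, and Igkv14-126 is bright in the WT columns, where its share is 1.55 to 8.47%.

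Usage was more even in knockout. The effective number of segments, the inverse of the unbiased Simpson index, is the number of equally used segments that would give the same chance that 2 draws hit the same segment. It was 34.6, 33.1 and 34.2 in knockout without antigen, 34.9, 35.2 and 34.9 with antigen, 35.1, 35.4 and 35.2 with IL-1beta and 35.5, 34.2 and 35.96 with IL-18. In WT it was 19.5, 19.6 and 20.2, then 27.7, 25.4 and 21.9, then 22.3, 17.8 and 21.6, then 30.3, 21.4 and 20.03. Every knockout library lay above every WT library. The mean difference was 12.5 effective segments (34.9 ± 0.8 against 22.3 ± 3.7, SD, n = 12 each; exact permutation p = 1.25e-05, the smallest possible; adjusted p = 2.5e-05).

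Because WT libraries have few counts, the number of segments expected in 350 counts was also computed. It was 61.8 to 64.0 in knockout and 44.0 to 55.9 in WT, a mean difference of 11.4 segments (exact permutation p = 1.25e-05; adjusted p = 2.5e-05). The 82 segments were chosen on counts that came mostly from knockout, which favours that arm in a count of segments, so the p is not read as evidence for it. Over all 163 Igkv and Iglv rows, with no threshold on counts, the difference was 9.88 segments and that of the effective number 12.2 (exact permutation p = 1.25e-05 for each). With kappa segments alone the effective number still differed by 8.17 between the genotypes (exact permutation p = 1.25e-05), an alternative added after the data were seen.

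**Figure D4:**
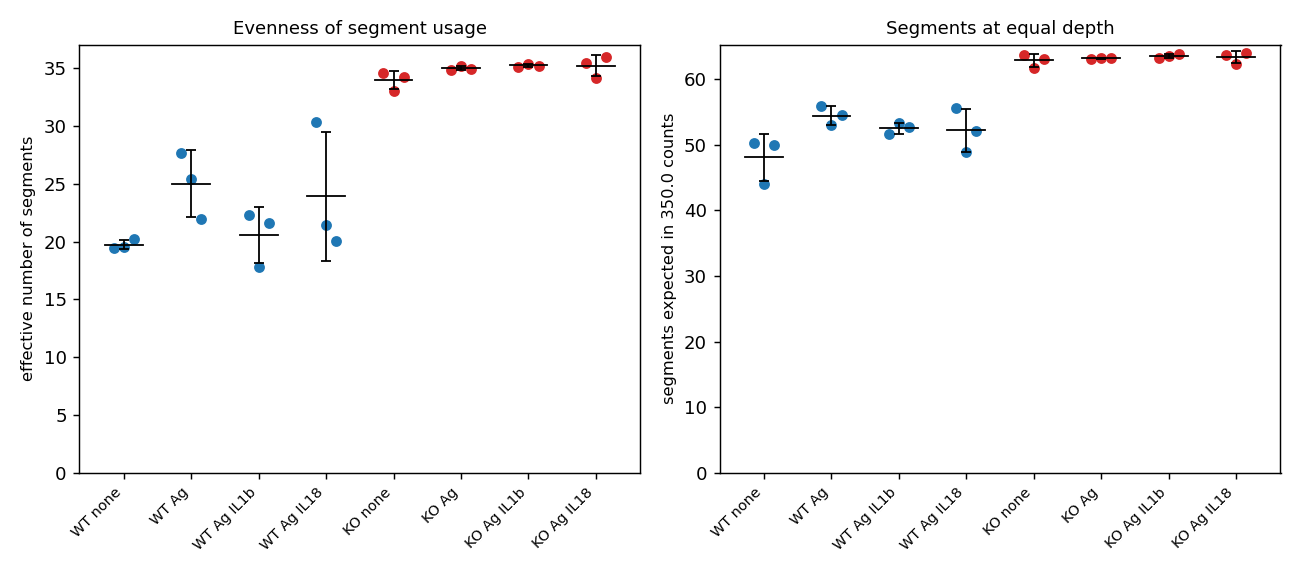
Left, effective number of segments per library; right, number of segments expected in 350 light chain variable counts. Points are libraries (blue WT, red knockout), long bars the mean and error bars the SD of 3 libraries; on the left the knockout libraries lie at 33.1 to 35.96 and the WT libraries at 17.8 to 30.3.

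The knockout libraries also resembled each other more. The Morisita index of overlap, which is 1 for equal usage and allows for counting error, was 0.992 to 0.997 between knockout libraries of the same group and 0.987 to 0.997 between knockout libraries of different conditions. Between WT libraries it was 0.834 to 0.956 within groups and 0.807 to 0.966 across conditions. Between a WT and a knockout library it was 0.654 to 0.815, with a median of 0.728. The ranges within and across conditions overlapped in each genotype, and the lowest WT pair lay below the highest pair of different genotypes. Usage still varied beyond counting: chi-square per degree of freedom, which is about 1 for counting error alone, was 4.302 over the 12 knockout libraries, 3.62 over the 12 WT libraries, for the 19 segments with enough counts there, and 121 between the summed arms.

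Antigen raised a minority of the segments. In knockout, 11 of 82 segments rose and 0 fell (13.4% against 33.8% of all tested genes that rose and 34.6% that fell), a smaller share than over all tested genes in either direction. The median log2 change of the 82 was 0.27, beside 0.01 for all genes, and 73 of 82 were above 0. In WT, 4 of 82 rose and 0 fell (4.88%, against 33.5% of all tested genes that rose). In WT only 48 segments averaged 3 counts or more in either group, which limits what could be called. Igkv14-126 and Igkv17-127 were called in both genotypes, that is 50% of the WT calls and 18.2% of the knockout calls.

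Igkv14-126 had the clearest response. In WT it stood at 0.59, 0.29 and 0.49 CPM without antigen and at 1.92, 1.42 and 1.43 with antigen. In knockout it stood at 1.87, 1.01 and 1.03 and rose to 4.04, 2.19 and 2.91. The groups did not overlap in either genotype. The log2 change was 1.77 (SE 0.48, edgeR adjusted p = 0.00262) in WT and 1.23 (SE 0.35, edgeR adjusted p = 0.00335) in knockout, and both calls held under every alternative tried. The difference of the 2 responses was -0.54 (SE 0.61, edgeR adjusted p = 0.69), which does not show that they were equal. With added cytokine it stood at 2.26, 0.65 and 1.70 (IL-1beta) and 1.77, 1.35 and 1.45 CPM (IL-18) in WT, and at 2.88, 1.99 and 2.27 and 3.33, 1.502 and 1.83 CPM in knockout.

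**Figure D5:**
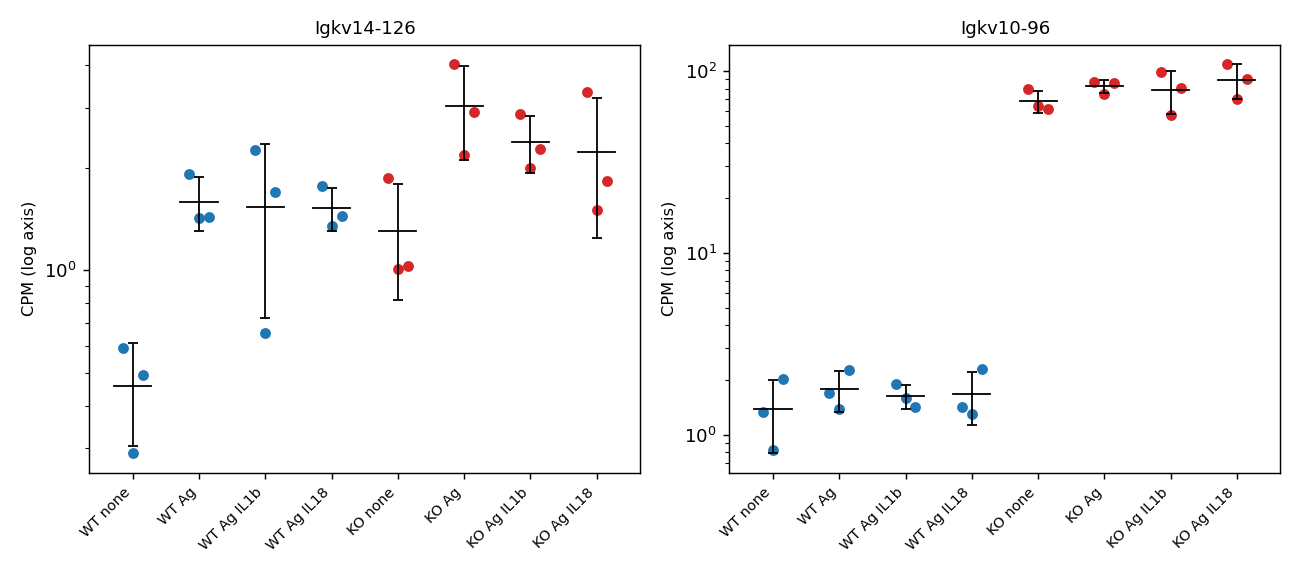
CPM (log axis) of Igkv14-126 and, for comparison, of Igkv10-96, the top segment in knockout. Points are libraries (blue WT, red knockout), long bars the mean and error bars the SD of 3 libraries; Igkv14-126 without antigen lies at 0.29 to 0.59 CPM in WT and 1.01 to 1.87 CPM in knockout.

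Igkv17-127 rose in knockout from 15.6, 12.6 and 13.5 CPM to 20.9, 15.5 and 20.4 CPM (log2 change 0.45, SE 0.17, edgeR adjusted p = 0.0229). The groups overlapped slightly. In WT it went from 0.15, 0.63 and 0.54 to 1.36, 1.01 and 0.89 CPM (1.27, SE 0.54, edgeR adjusted p = 0.0448). Unlike Igkv14-126, it lost its call under some alternatives in each genotype, with adjusted p up to 0.080 in knockout and 0.17 in WT on leaving out 1 library.

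In knockout the other leading calls were Igkv4-61, Igkv4-60, Igkv1-117 and Igkv1-99. Igkv4-61 rose from 3.93, 2.93 and 4.13 CPM to 5.31, 6.31 and 6.57 (log2 change 0.72, SE 0.20, edgeR adjusted p = 0.00286). Igkv1-117 rose from 22.5, 19.1 and 21.1 CPM to 28.6, 27.2 and 27.1 (0.40, SE 0.13, edgeR adjusted p = 0.00945). Neither overlapped between the groups in CPM, and both calls held under every alternative tried. As shares of the light chain variable counts both overlapped. Igkv4-61 took 0.342, 0.358 and 0.469% without antigen and 0.438, 0.607 and 0.568% with it. Igkv1-117 took 1.96, 2.33 and 2.40% and then 2.36, 2.61 and 2.34%. Igkv4-60, a pseudogene at 3 to 4 counts without antigen and 10 to 14 with it (1.48, SE 0.44, edgeR adjusted p = 0.00454), is 97.21% identical to Igkv4-53, and its reads may not be its own. Igkv1-99 went from 15, 7 and 4 to 34, 16 and 15 counts (1.19, SE 0.44, edgeR adjusted p = 0.0191). That call was lost without the library numbered 3 of the group without antigen or the antigen library numbered 1 (0.80 and 0.79, edgeR adjusted p = 0.12 and 0.16), and the value was 1.85 without the library numbered 1 of the group without antigen.

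The count in knockout hung on single libraries. It was 21 without the first knockout library without antigen, whose light chain level was the highest of its group. It was 7 and 4 without the other 2 libraries of that group, and 5 and 6 without the antigen library numbered 1 or 3. The WT calls beside Igkv14-126 and Igkv17-127 were Iglv2, at 5, 0 and 0 counts without antigen and 14, 10 and 7 with it (log2 change 2.54, SE 1.00, edgeR adjusted p = 0.0296), and Igkv3-12, at 1, 0 and 0 against 1, 5 and 3 counts (2.77, SE 1.13, edgeR adjusted p = 0.0322). Both rest on few counts: leaving out 1 library gave 1.99 to 6.43 for Iglv2 and 2.31 to 4.68 for Igkv3-12, the highest values without the library numbered 1 of the group without antigen. The call of Iglv2 was lost without the library numbered 2 or 3 of that group or the antigen library numbered 1 (edgeR adjusted p up to 0.102). The call of Igkv3-12 was lost without the library numbered 2 or 3 of either group (edgeR adjusted p up to 0.135). The WT count fell to 2, 1 and 2 without the library numbered 2 or 3 of the group without antigen or the antigen library numbered 1, and was 15 with DESeq2.

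Antigen did not move the lambda share detectably. It averaged 10.2% over the 6 libraries without antigen and 9.87% over the 6 with it (difference -0.36 points, exact two-sided permutation within genotypes, p = 0.80, adjusted p = 0.80; 400 rearrangements allow no less than 0.005). The effective number of segments was higher with antigen by 3.15 (exact permutation p = 0.005, the smallest possible; adjusted p = 0.0075). In WT all 3 antigen libraries, at 21.9 to 27.7, lay above the 3 without antigen, at 19.5 to 20.2, and in knockout 34.9 to 35.2 lay above 33.1 to 34.6. Libraries with antigen and a cytokine were not in this test. In WT they ran from 17.8 to 22.3 with IL-1beta and 20.03 to 30.3 with IL-18, both overlapping the group without antigen. In knockout they ran from 35.1 to 35.4 and 34.2 to 35.96, of which only IL-18 overlapped it. With kappa segments alone the difference was 2.20 (exact permutation p = 0.125), and without the WT library numbered 1 or 2 in the group without antigen p was 0.055 or 0.05.

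The number of segments expected in 350 counts rose with antigen by 3.35 (exact permutation p = 0.035; adjusted p = 0.042). The WT libraries moved from 50.3, 44.0 and 50.03 to 55.9, 53.0 and 54.5, whereas the knockout libraries stood at 63.8, 61.8 and 63.1 and at 63.1, 63.3 and 63.2. The knockout groups overlapped. The test lost its call without any 1 of 4 libraries (exact permutation p = 0.06 to 0.09): the antigen WT libraries numbered 1 and 3 and the WT and knockout libraries numbered 2 without antigen.

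No segment passed the test for either cytokine added to antigen. For IL-1beta, edgeR called 0 of 82 in knockout (1 at an unadjusted p under 0.05) and 0 in WT (1 unadjusted), where 0.0426% and 0.0567% of all tested genes were called. For IL-18 it called 0 in knockout (2 unadjusted) and 0 in WT (3 unadjusted), where 0.213% and 0% of all tested genes were called. DESeq2 called 0 in each of the 4 comparisons. The difference of the antigen response between genotypes gave 0 calls in edgeR (3 unadjusted), 2 in DESeq2 and 8.39% of all tested genes in edgeR. These comparisons use the same antigen libraries, and the median log2 change of the 82 segments was -0.01 and 0.11 for IL-1beta and IL-18 in knockout and 0.00 and -0.04 in WT.

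The constant regions of the light chains were also higher in knockout. Of 13 constant and joining segments in the list, 8 passed the filter and all 8 were called higher in knockout in each of the 4 conditions, where 9.62%, 7.7%, 7.22% and 9.89% of all tested genes were. Of these, Igkj2 to Igkj5 averaged under 3 counts in every WT group and passed the filter through the knockout groups, so nothing is read from their calls. Igkc, the kappa constant region, stood at 836, 603 and 641 CPM in knockout and 13.7, 11.1 and 17.1 in WT without antigen (log2 difference 5.64, SE 0.27, edgeR adjusted p = 1.26e-10). The lambda constant regions differed less: 3.68 (SE 0.32) for Iglc1, 3.56 (SE 0.35) for Iglc2 and 2.03 (SE 0.38) for Iglc3 on the log2 scale, all called. Iglc2 averaged 5.33 to 10.3 counts per library in the WT groups and passed the filter through the knockout groups, so nothing is read from its genotype call. Kappa variable counts were 1.23 to 1.69 times the Igkc counts in all 24 libraries.

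With antigen, 1 of the 8 was called, in knockout. Iglc2 fell from 3.98, 2.98 and 2.47 CPM to 2.08, 1.59 and 1.98 without overlap (log2 change -0.72, SE 0.23, edgeR adjusted p = 0.00734). Iglv2, the variable segment that mostly joins to Iglc2, was at 2.65, 1.49 and 2.20 CPM and at 2.25, 2.53 and 2.07 CPM in the same libraries (0.10, SE 0.37, edgeR adjusted p = 0.83). Iglc2 and Iglc3 are close copies and the counting could split their reads, so the Iglc2 value is uncertain.

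Of 7 genes of the surrogate light chain and of recombination, 1, Vpreb3, passed the filter, and the recombinase genes Rag1 and Rag2 averaged under 10 counts per library in all groups. Of the 3 octamer factors, which act at immunoglobulin promoters, Pou2af1, the B cell coactivator, was called higher in knockout in all 4 conditions, for example at a mean of 3.93 against 0.77 CPM without antigen (log2 difference 2.35, SE 0.34, edgeR adjusted p = 3.68e-05). It rose with antigen in knockout to 10.4 CPM (1.42, SE 0.21, edgeR adjusted p = 4.69e-06). Pou2f1 and Pou2f2 were at 43.1 and 58.3 CPM in WT and 43.3 and 41.5 CPM in knockout without antigen, of which Pou2f2 was called lower.

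Most plasma cell markers were called higher in knockout, whereas B cell markers differed in both directions. Of 10 plasma cell markers, 9 were tested; 8, 7, 8 and 8 were called higher in knockout in the 4 conditions and 0, 1, 1 and 1 lower, where 9.62%, 7.7%, 7.22% and 9.89% of all tested genes were higher and 7.25%, 7.62%, 6.55% and 10.3% lower. The marker called lower was Sdc1 (syndecan-1), a surface marker of plasma cells: its log2 difference was 0.46 (SE 0.06, edgeR adjusted p = 1.49e-05) without antigen, and -0.42, -0.36 and -0.28 (SE 0.07 each, edgeR adjusted p = 8.33e-05, 0.000538 and 0.00391) with antigen, IL-1beta and IL-18. Jchain, which links IgM and IgA units, was at a mean of 191 CPM in knockout and 8.46 in WT without antigen (log2 difference 4.50, SE 0.22, edgeR adjusted p = 1.90e-10), and Mzb1, a chaperone of antibody-secreting cells, at 1.08 and 0.03 CPM. Mzb1 averaged at most 1.33 and Derl3 at most 4.67 counts per library in any WT group. Both passed the filter through the knockout groups, so nothing is read from their calls. The summed list ran from 453 to 641 CPM in knockout and from 333 to 363 in WT. Most of the WT sum came from Xbp1, Sdc1 and Prdm1, at means of 137, 125 and 50.7 CPM without antigen. Which cells carried this RNA was not tested, so neither Sdc1 nor the sum is read as a plasma cell level. Of 10 B cell markers, 8 were tested; 1, 1, 2 and 3 were called higher in knockout in the 4 conditions and 4, 3, 1 and 0 lower. Pax5, a transcription factor of the B cell lineage, was at 0.21 CPM in knockout and 1.54 in WT without antigen (log2 difference -2.82, SE 0.40, edgeR adjusted p = 5.39e-06). Its difference was -1.20 (SE 0.27, edgeR adjusted p = 0.00198) with antigen, -0.84 (SE 0.27, edgeR adjusted p = 0.0360) with IL-1beta and -0.17 (SE 0.28, edgeR adjusted p = 0.734), not called, with IL-18.

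With antigen in knockout 5 of 8 tested B cell markers were called higher and 1 lower, and 3 of 9 tested plasma cell markers higher and 3 lower. Over all tested genes 33.8% were called higher and 34.6% lower, and the plasma cell counts were near those shares. The summed B cell list ran from 64.6 to 78.8 CPM in knockout and from 50.9 to 61.6 in WT. Most of it was Cd22, at means of 60.2 CPM in knockout and 41.2 in WT without antigen, so the sum is not read as a B cell level. T cell markers summed to 12.1 to 20.9 CPM in knockout and 13.2 to 16.1 in WT, with 0, 1, 1 and 0 of 8 called higher in the 4 conditions. Heavy chain constant genes summed to 1328 to 2529 CPM in knockout and 47.5 to 117 in WT. Of 8, 6 were called higher in knockout and 1 lower without antigen. In each other condition 7 were called higher and 0 lower. Over all tested genes 9.62%, 7.7%, 7.22% and 9.89% were higher in the 4 conditions, and 7.25%, 7.62%, 6.55% and 10.3% lower. Ighe averaged at most 0.333 counts per library in any WT group and passed the filter through the knockout groups, so nothing is read from its call. The part of plasma cells, B cells and T cells in the usage and evenness differences was not tested.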

How the data were processed

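Poly(A) RNA from 24 co-culture libraries was extracted with Trizol, per the labels' protocols. The deposited table holds raw counts per Ensembl gene, 1 column per library, that the authors made from reads trimmed with fastp on GRCm39, per the submitters' processing notes; versions, aligner, counter and annotation are not given in the sources used here. Symbols came from a gene name table (346 of 55487 identifiers unmatched). Titles gave the groups, since 11 knockout samples carry the names of other genes as their genotype. The segments, gene lists and tests were chosen with earlier results of these data known.

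The count table was fitted with edgeR 4.0.16 in R 4.3.3 (filterByExpr, 14099 genes, 99.94% of counts; TMM; robust quasi-likelihood test, all 24 libraries, 1 coefficient per group, 16 residual degrees of freedom) and called at a Benjamini-Hochberg adjusted p of 0.05 over all tested genes. CPM uses the TMM factors. DESeq2 1.42.0, other size factors, no filter, a replicate block and leaving out each library were alternatives. A library's lambda percent, effective number of segments and expected segments in 350 counts were compared with exact permutation tests (Python 3.11.15). The scripts were tested on simulated data. Lambda intervals are exact binomial, at 95%. Segments were named by these rules: the 12 with the highest counts, every Iglv row, the 4 highest and 4 lowest ratios of WT to knockout share (100 WT counts or more), up to 6 called segments per antigen or cytokine comparison, the 3 on each side of the threshold, and the 4 smallest and 4 largest genotype differences without antigen. Germline sequences were aligned with Biopython 1.88; all 82 segments matched a GENCODE vM21 transcript, and 79 kappa segments matched RefSeq on GRCm38.p6, used for order only. No coordinates are given because the reference is of another build than the files.

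Same-numbered libraries deviated together, with every correlation above 0.1, in the comparisons of knockout with WT without antigen (0.25, 0.34 and 0.20) and with IL-18 (0.19, 0.19 and 0.11), where a replicate block gave 81 and 80 calls, as without it.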

Additional observations from a re-analysis of the deposited data

How the results depend on the processing

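The labels do not say that replicate numbers mark shared animals or days, and in the other comparisons not every same-numbered pair deviated together. There the replicate block gave 23 calls in place of 11 for antigen in knockout and 7 in place of 4 for antigen in WT, and changed no other count of calls by over 1.5 times; for the number of segments in 350 counts with antigen it gave p = 0.0938 for the same difference of 3.35 (exact sign-flip test). DESeq2 called 15 segments for antigen in WT and 2 for the difference of responses. Without a filter on low counts 2 segments were called for IL-18 in knockout, in place of 0, and without its second IL-18 library 1. Leaving out 1 library at a time gave 75 to 81, 78 to 79, 78 to 80 and 77 to 80 calls for knockout against WT in the 4 conditions, 4 to 21 for antigen in knockout, 1 to 4 for antigen in WT, 0 to 1 for IL-18 in knockout, and 0 for the other cytokine comparisons and for the difference of responses. The lambda share differed between genotypes by -8.85 to -7.75 points, the effective number by 12.05 to 13.3 and the segments in 350 counts by 10.9 to 11.8, each still called. With antigen the effective number differed by 2.49 to 3.93 (3.09 and 3.11, no longer called, without the first or second WT library without antigen; 2.20, not called, with kappa alone) and the segments in 350 counts by 2.32 to 3.89 (2.99, 3.33, 2.32 and 3.08, no longer called, without the WT antigen library numbered 1 or 3 or the second WT or knockout library without antigen). The lambda share with antigen, not called in any setting, changed by -1.36 to 0.60 points and its sign turned without the second WT antigen library (0.11) or the first WT library without antigen (0.60). Igkv14-126, Igkv4-61, Igkv4-60 and Igkv1-117 kept their antigen calls in knockout under every alternative that gave a value, and Igkv14-126 also in WT; the other 7 segments in knockout and 3 in WT lost theirs under at least 1. WT libraries, with 388 to 690 light chain variable counts each, limit what can be said of single segments there.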
